A study of Homo sapiens with 3 samples.

Results

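J-domain proteins are the partners that bring clients to HSP70 and switch on its ATPase, and their 39 genes of the symbol series DNAJA, DNAJB and DNAJC were examined in H660 cells exposed to JG231, an inhibitor of HSP70. The members were all rows of the deposited table of 58735 genes whose symbol is one of these stems followed only by a number, without 4 symbols (DNAJB9, DNAJB11, DNAJC3 and DNAJC19). Class A contributed 4 genes, class B 11 and class C 24. H660 (NCI-H660) is an established human neuroendocrine prostate cancer cell line, here the parental line, and JG231 acts on HSP70 at an allosteric site. RNA was sequenced from cells given the vehicle DMSO, 2.5 μM JG231 or 5 μM JG231 for 24 h, with 1 library per condition. The question that the comparison addresses is how JG231 changed gene expression in this cell line. Because no condition was repeated, no SD, SE or p-value can be given for any gene, and every difference below is a difference between single libraries. The DMSO library serves both JG231 comparisons.
HSP70 holds unfolded segments of proteins in cycles of ATP binding and hydrolysis. A J domain, a small helical module with a conserved His-Pro-Asp motif, docks on HSP70 and stimulates hydrolysis, which closes HSP70 on the client. Class A proteins carry a glycine-rich region and a zinc-binding region besides the J domain, class B proteins have the glycine-rich region without the zinc-binding region, and class C proteins share only the J domain and are often tied to a single task or compartment.
Values are FPKM, fragment numbers divided by transcript length and library depth, so levels of different genes can be compared per length. Changes are log2((FPKM in JG231 + 0.1)/(FPKM in DMSO + 0.1)), which understates the change of low genes. Steps in the FPKM values corresponded to 16.1, 20.4 and 24.1 M fragments in the DMSO, 2.5 μM and 5 μM libraries, while the genes above 0 numbered 21862, 19352 and 17293. Of 9 neuroendocrine markers, 8 were over 1 FPKM in DMSO and all 9 in the JG231 libraries. Their summed FPKM was 514 in DMSO and 193 to 223 with JG231. None of 5 luminal prostate markers and none of 3 leukocyte markers reached 1 FPKM in any library, although the sample records call the cell type prostatic adenocarcinoma. Of 5 fibroblast markers VIM was over 1 FPKM in every library, with COL1A1 as the only other in the 5 μM library, and the list summed to between 3.36 and 9.45 FPKM. The part of these shifts in the results was not tested, and in bulk RNA fewer cells of a type and less RNA per cell cannot be told apart.

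Promoter sequences are shown for the members whose upstream region holds the letters of a heat shock element, the binding site of HSF1, more than once or in the 3-unit form, and for the member with the largest increase at 5 μM. The windows were the 250 bases before the canonical transcript start of GENCODE release 44, read 5′ to 3′ on the gene's strand of GRCh38. The printed runs leave out bases inside annotated exons. In capitals are GAANNTTC in DNAJB1 and DNAJA4, the 3-unit element in DNAJB6 and the E-box CACGTG in DNAJC12. The DNAJB1 run is chr19:14518408-14518647 on the minus strand, that of DNAJA4 is chr15:78264394-78264543 on the plus strand, that of DNAJB6 is chr7:157336774-157336965 on the plus strand and that of DNAJC12 is chr10:67838189-67838438 on the minus strand.
DNAJB1: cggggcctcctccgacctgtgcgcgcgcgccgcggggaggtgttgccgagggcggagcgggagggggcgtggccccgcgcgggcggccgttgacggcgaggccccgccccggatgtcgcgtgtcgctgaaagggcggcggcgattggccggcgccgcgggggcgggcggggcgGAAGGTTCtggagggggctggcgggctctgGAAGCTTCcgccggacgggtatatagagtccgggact
DNAJA4: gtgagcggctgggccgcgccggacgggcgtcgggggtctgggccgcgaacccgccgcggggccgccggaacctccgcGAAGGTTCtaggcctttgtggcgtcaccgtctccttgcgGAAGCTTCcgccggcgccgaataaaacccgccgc
DNAJB6: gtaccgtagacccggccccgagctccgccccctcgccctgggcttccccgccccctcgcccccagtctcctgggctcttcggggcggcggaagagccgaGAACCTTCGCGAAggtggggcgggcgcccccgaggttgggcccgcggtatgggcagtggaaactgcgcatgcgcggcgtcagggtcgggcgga
DNAJC12: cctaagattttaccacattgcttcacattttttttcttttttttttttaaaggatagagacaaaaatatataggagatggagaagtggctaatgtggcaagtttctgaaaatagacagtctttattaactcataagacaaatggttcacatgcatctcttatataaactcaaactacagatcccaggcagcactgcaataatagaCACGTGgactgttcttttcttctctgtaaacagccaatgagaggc
The head-to-head pair of heat shock units, GAANNTTC, stood in the windows of 5 of 39 members, DNAJA1, DNAJA4, DNAJB1, DNAJB6 and DNAJB7, against 4.67% of 20046 protein-coding genes. DNAJB1 and DNAJA4 each held it 2 times, at positions -77 and -47 from the start in DNAJB1 and -91 and -52 in DNAJA4. The tail-to-tail pair TTCNNGAA was found in DNAJB4, DNAJB6 and DNAJC15, against 5.40% of genes. The 3-unit heat shock element, GAANNTTC followed at once by NNGAA, contains both pairs and was found in DNAJB6, against 0.324% of genes. CACGTG, an E-box to which MYC-family proteins can bind, stood before DNAJC1, DNAJC8, DNAJC12 and DNAJC16, against 7.86% of genes, and the core of the amino acid response element read by ATF4, TGATGNAA, before DNAJC28, against 2.19%. All were searched on both strands. Such a match is a description of letters, and a window without them says nothing about binding elsewhere.

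Under DMSO a few members held a large part of the J-domain transcript pool. DNAJA1 was the highest at 94.2 FPKM, above 98.1% of the genes over 1 FPKM, followed by DNAJC12 at 40.4, DNAJC8 at 38.1, DNAJB1 at 36.9 and DNAJC5 at 27.5 FPKM. DNAJA1, DNAJB1, DNAJC8 and DNAJC12 together held 48.2% of the summed FPKM of all members in DMSO, 55.4% at 2.5 μM and 61.4% at 5 μM. Of the 39 members, 33 had a mean FPKM over the 3 libraries of at least 1, which were 3 of 4 in class A, 7 of 11 in class B and 23 of 24 in class C. The others were DNAJA4, DNAJB3, DNAJB7, DNAJB8, DNAJB13 and DNAJC15. DNAJB3, which GENCODE lists as a pseudogene, DNAJB8 and DNAJC15, a regulator of mitochondrial import, were listed at 0 in all libraries. DNAJB7 had 0.145 FPKM in DMSO, about 6 fragments, and was listed at 0 in both JG231 libraries.

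**Figure D1:**
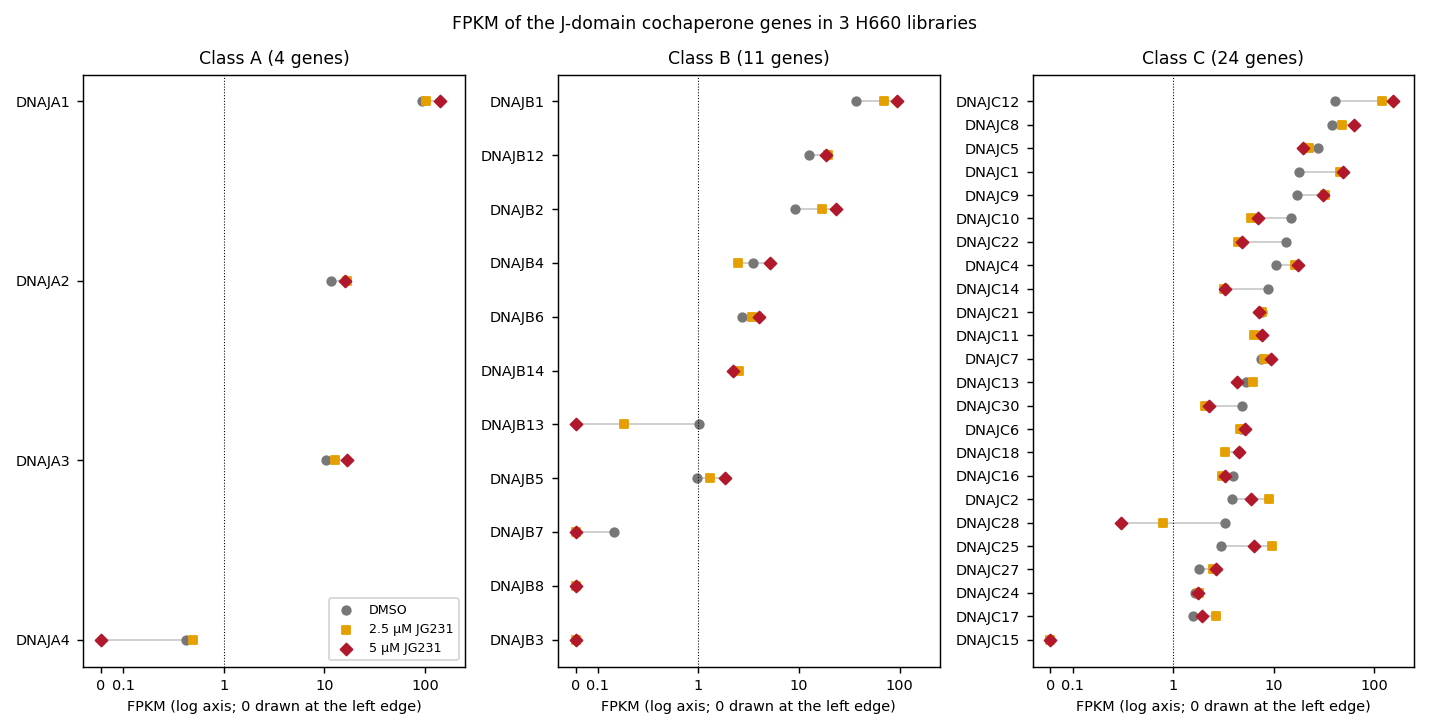
FPKM (log axis, with 0 drawn at the left edge) of the 39 members in the DMSO, 2.5 μM and 5 μM libraries, by class and ordered by the DMSO value. With 1 library per point and a dotted line at 1 FPKM, DNAJB1, DNAJB2, DNAJC1 and DNAJC12 lie to the right in both JG231 libraries, and DNAJC10, DNAJC14, DNAJC22 and DNAJC28 to the left.

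Against DMSO the members moved in both directions, with more of them higher than lower as deposited. At 2.5 μM, 34 members had an FPKM over 1 in either library, of which 16 were higher and 10 were lower by more than 0.25 on the log2 scale and 8 stayed within it. Over all 15746 genes passing the same filter 36.4% were higher and 43.4% lower, and over protein-coding genes 38.3% and 37.2%. At 5 μM, 19 of 34 members were higher and 9 lower, against 36.5% and 45.1% of 15765 genes, and 38% and 39.6% of protein-coding genes. With the libraries rescaled to a common sum without mitochondrial and small RNA genes, where the median of all genes stood at -0.29 at 2.5 μM and -0.40 at 5 μM, the balance turned, to 10 members higher and 13 lower at 2.5 μM and 10 higher and 14 lower at 5 μM. The share of higher members among those called was 61.5% as deposited and 43.5% rescaled at 2.5 μM, and 67.9% and 41.7% at 5 μM. The calls of higher level lost there were those of DNAJA2, DNAJA3, DNAJB5, DNAJB6, DNAJC8 and DNAJC27 at 2.5 μM, and of DNAJA1, DNAJA2, DNAJB4, DNAJB6, DNAJB12, DNAJC2, DNAJC7, DNAJC17 and DNAJC27 at 5 μM. Over all genes the share of higher calls was 45.6% and 30.4% at 2.5 μM, and 44.7% and 27.6% at 5 μM.
Past a log2 change of 1, 4 members were higher and 6 lower at 2.5 μM, against 12.9% and 21.7% of all genes. At 5 μM these were 5 and 6, against 14.7% and 24.3%. Of the lower members DNAJB13 and DNAJC28 passed the filter through their DMSO value alone. In the rescaling without mitochondrial and small RNA genes 3 members were higher by over 1 at 2.5 μM and 2 at 5 μM, with 6 lower at each dose. With the trend with transcript length removed 4 were higher and 5 lower at each dose, DNAJC10 no longer among the lower. Since no condition was repeated, the spread of a single gene is given below as the robust SD, over 500 genes of like mean FPKM, by which the JG231 libraries differ from each other on the log2 scale. It describes a difference between doses, not replicate error, and ranged over the members from about 0.20 for DNAJA1 to 0.92 for DNAJC28.
By class, the median change was 0.31 at 2.5 μM and 0.58 at 5 μM for the 3 measured class A genes, 0.38 and 0.55 for the 7 of class B and 0.12 and 0.09 for the 23 of class C, beside 0.00 and -0.01 over the 13785 genes at or above that mean FPKM. After the rescaling without mitochondrial and small RNA genes the class A medians were 0.017 and 0.20, those of class B 0.11 and 0.18 and those of class C -0.17 and -0.27. Counts by class are to be read beside 36.4% higher and 43.4% lower at 2.5 μM, and 36.5% and 45.1% at 5 μM, over all genes. In class A, 2 genes were higher and none lower at 2.5 μM, and 3 were higher at 5 μM. Class B had 5 higher and 2 lower at 2.5 μM and 6 higher and 1 lower at 5 μM. The class B median at 2.5 μM is the value of DNAJB5. This gene, counted as higher at both doses, passed the filter through the JG231 libraries alone and could only be higher. DNAJB13, counted as lower at both doses, passed through the DMSO library alone. In class C 9 were higher and 8 lower at 2.5 μM and 10 were higher and 8 lower at 5 μM, of 23 tested, or 39.1% and 43.5% higher and 34.8% lower at each dose. The 4 members higher by over 1 at 2.5 μM, DNAJC1, DNAJC2, DNAJC12 and DNAJC25, were all of class C, and the 5 at 5 μM were DNAJB1, DNAJB2, DNAJC1, DNAJC12 and DNAJC25. After the rescaling without mitochondrial and small RNA genes DNAJC2 was no longer over 1 at 2.5 μM, and only DNAJC1 with 1.08 and DNAJC12 with 1.53 were over 1 at 5 μM.

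**Figure D2:**
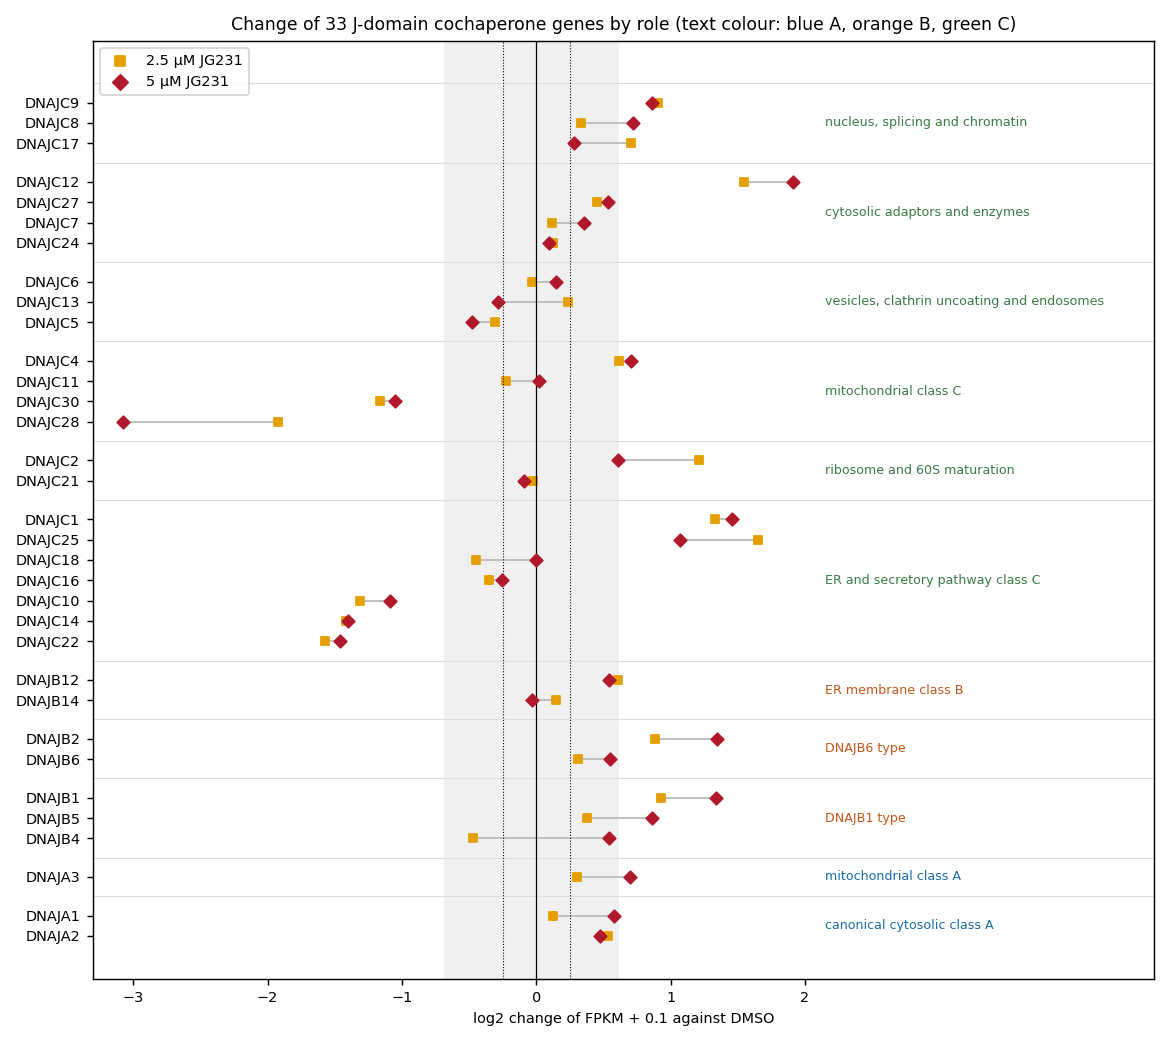
log2 change of FPKM + 0.1 against DMSO for the 33 members at or above a mean FPKM of 1, grouped by role, with squares for 2.5 μM and diamonds for 5 μM JG231, 1 library each. Grey shading spans the middle 50% of all genes at 5 μM, from -0.68 to 0.61, dotted lines mark 0.25 in either direction, and DNAJC12 reaches 1.91 and DNAJC28 -3.07 at 5 μM.

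Summed over its members, class B grew most relative to DMSO. Its FPKM sum was 69.2 in DMSO, 116 at 2.5 μM and 148 at 5 μM, ratios of 1.68 and 2.14. Class A summed to 117, 133 and 174 FPKM, ratios of 1.14 and 1.49, and class C to 249, 363 and 410 FPKM, ratios of 1.46 and 1.64. After the rescaling without mitochondrial and small RNA genes the ratios at 2.5 and 5 μM were 0.93 and 1.15 for class A, 1.37 and 1.64 for class B, and 1.19 and 1.26 for class C, so that class A was lower than in DMSO at 2.5 μM only there. Shares within a library do not depend on scaling. Class B held 15.9% of the members' summed FPKM with DMSO, 19.0% with 2.5 μM and 20.2% with 5 μM, class A 26.8%, 21.7% and 23.8%, and class C 57.3%, 59.3% and 56.0%.
The sums rest on few genes. DNAJB1 made up 53.4% of class B in DMSO and 63.0% at 5 μM, and without it the class B ratios were 1.42 and 1.70. DNAJC12 made up 16.2% of class C in DMSO, 32.5% at 2.5 μM and 37.1% at 5 μM, and without it the class C ratios were 1.17 and 1.23. DNAJA1 held 77.3% to 81.0% of class A in the 3 libraries.

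**Figure D3:**
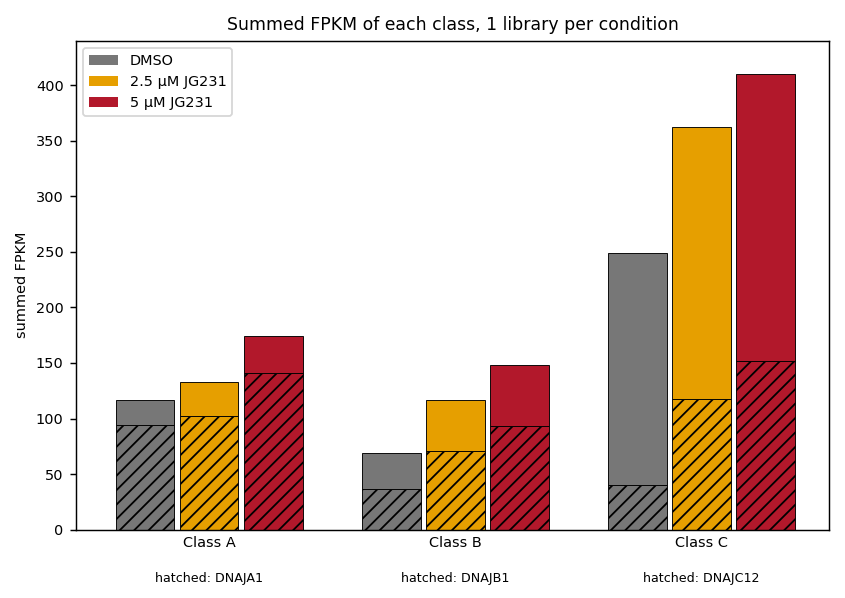
Summed FPKM of classes A, B and C in the DMSO, 2.5 μM and 5 μM libraries, 1 library per bar and no error bar, with the hatched part showing the highest member of each class. Class B goes from 69.2 to 148 FPKM between DMSO and 5 μM, and the hatched DNAJC12 from 40.4 to 152 FPKM.

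The class A genes are general partners of HSP70. DNAJA1 (ENSG00000086061, chromosome 9, 33025273 to 33039907 on GRCh38), a cytosolic protein, had 94.2 FPKM with DMSO, 103 with 2.5 μM and 141 with 5 μM. Its log2 changes were 0.12 and 0.58, of which only the one at 5 μM was larger than the spread between doses of 0.20. After the rescaling without mitochondrial and small RNA genes the changes were -0.17 and 0.20. DNAJA1 has 6 processed pseudogenes in the table, 5 of them listed at 0 throughout and DNAJA1P3 at most 0.522 FPKM, and reads shared with such copies make its value uncertain. DNAJA2, its cytosolic relative, had 11.6, 16.9 and 16.2 FPKM in DMSO, 2.5 μM and 5 μM, log2 changes of 0.53 and 0.47 beside a spread of 0.27. DNAJA3, which serves the HSP70 of the mitochondrial matrix, had 10.3, 12.8 and 16.8 FPKM, changes of 0.31 and 0.70 against a spread of 0.30. After the same rescaling DNAJA2 had 0.24 and 0.097, and DNAJA3 0.017 and 0.32. DNAJA4, whose promoter like that of DNAJB1 holds the heat shock letters 2 times, had 0.424 FPKM in DMSO and 0.499 at 2.5 μM, about 21 and 32 fragments, and was listed at 0 at 5 μM.

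In class B the 4 genes grouped with DNAJB1 gave 2 higher and 2 lower calls at 2.5 μM and 3 higher and 1 lower at 5 μM, and of the 5 grouped with DNAJB6 the 2 that passed the filter were higher at both doses, beside 36.4% and 36.5% of all genes higher and 43.4% and 45.1% lower. After the rescaling without mitochondrial and small RNA genes, DNAJB1 and DNAJB2 alone of them were still higher by over 0.25 at 2.5 μM. DNAJB1 (ENSG00000132002, chromosome 19, 14514769 to 14560391), the classical stress-inducible HSP40, had 36.9 FPKM with DMSO, 70.4 with 2.5 μM and 93.3 with 5 μM, the lowest value in DMSO and the highest at 5 μM. Its log2 changes of 0.93 and 1.33 exceeded its spread of 0.22. With the length trend removed the 5 μM change was 1.11, and after the rescaling without mitochondrial and small RNA genes the changes were 0.64 and 0.95. The ratio of DNAJB1 to DNAJA1 FPKM, which no scaling between libraries can alter, was 0.39 in DMSO, 0.69 at 2.5 μM and 0.66 at 5 μM. TECR overlaps the annotated DNAJB1 gene on the opposite strand, at 46.8, 52.2 and 64.6 FPKM. The sample records name strand-specific libraries, but no source used here states if reads were assigned by strand.
DNAJB2 (ENSG00000135924, chromosome 2, 219279342 to 219286898), a neuronal J-domain protein that steers ubiquitinated clients to the proteasome, had changes close in size to those of DNAJB1. It had 9.10 FPKM with DMSO, 16.8 with 2.5 μM and 23.3 with 5 μM, log2 changes of 0.88 and 1.35 beside a spread of 0.26. DNAJB6, which holds back aggregation of polyglutamine proteins, had 2.73, 3.40 and 4.03 FPKM, changes of 0.31 and 0.55 against a spread of 0.49. DNAJB5 had 0.971, 1.29 and 1.85 FPKM, with changes of 0.38 and 0.86 that lay within its spread of 0.91. It passed the filter through the JG231 libraries alone and so could only be higher. As deposited, DNAJB4 was the only member with changes over 0.25 in opposite directions, at 3.47 FPKM with DMSO, 2.48 with 2.5 μM and 5.10 with 5 μM. Its change of 0.54 at 5 μM is close to its spread of 0.50, and after the rescaling without mitochondrial and small RNA genes the value of 0.17 ends that call.
The 2 class B proteins of the ER membrane, whose J domains face the cytosol, differed. DNAJB12 had 12.6 FPKM with DMSO, 19.2 with 2.5 μM and 18.4 with 5 μM, changes of 0.60 and 0.54 against a spread of 0.26, while DNAJB14 had 2.28, 2.54 and 2.23 FPKM and changes of 0.15 and -0.03. DNAJB13, a component of the radial spokes of motile cilia, had 1.02 FPKM in DMSO and 0.184 at 2.5 μM, about 19 and 4 fragments, and was listed at 0 at 5 μM. It passed the expression filter through the DMSO library alone.

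The largest increase at 5 μM among the members was that of DNAJC12 (ENSG00000108176, chromosome 10, 67796669 to 67838188), a cytosolic partner of the aromatic amino acid hydroxylases. It had 40.4 FPKM with DMSO, 118 with 2.5 μM and 152 with 5 μM, and exceeded DNAJA1 in both JG231 libraries. The ratios to DMSO were 2.92 and 3.77, and the log2 changes of 1.54 and 1.91 compare with a spread of 0.21. Its canonical transcript of 1221 bp is short, and with the length trend removed the changes were 1.25 and 1.44. The other proteins grouped here as cytosolic adaptors and enzymes changed less. DNAJC27, which carries a Rab-like GTPase domain, had changes of 0.45 and 0.53 against a spread of 0.67. DNAJC7, a TPR protein that contacts HSP70 and HSP90, had 0.12 and 0.35 against 0.35. DNAJC24, of the diphthamide pathway, had 0.13 and 0.09 against 0.68.
All 3 nuclear members were higher at both doses as deposited, beside 36.4% and 36.5% of all genes. DNAJC9, a chaperone of histones H3 and H4, had 17.0 FPKM with DMSO, 32.0 with 2.5 μM and 31.0 with 5 μM, log2 changes of 0.91 and 0.86 beside a spread of 0.25. DNAJC8, which is associated with the spliceosome, had 38.1, 48.1 and 62.6 FPKM, changes of 0.33 and 0.72 against a spread of 0.22. DNAJC17, a splicing-related protein, had 1.59, 2.66 and 1.95 FPKM, and its changes of 0.71 and 0.28 lay within its spread of 0.74. After the rescaling without mitochondrial and small RNA genes DNAJC17 at 5 μM had the opposite sign, and DNAJC8 at 2.5 μM had 0.044. With the length trend removed DNAJC8 at 2.5 μM had 0.14.
Of the members at the ribosome, DNAJC2, which binds ribosomes with a specialised HSP70 and helps nascent chains, had 3.84 FPKM with DMSO, 9.04 with 2.5 μM and 5.91 with 5 μM. Its changes of 1.21 and 0.61 exceeded its spread of 0.39, with the larger one at the lower dose. After the rescaling without mitochondrial and small RNA genes they were 0.93 and 0.24, which ends the call at 5 μM. DNAJC21, a factor of 60S subunit maturation, had 7.69, 7.56 and 7.19 FPKM, changes of -0.02 and -0.09.

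The class C members of the ER and secretory pathway held members with changes over 1 in both directions at both doses. DNAJC1 (ENSG00000136770, chromosome 10, 21756548 to 22003769), an ER membrane protein whose J domain faces the lumen, had 17.9 FPKM with DMSO, 45.2 with 2.5 μM and 49.3 with 5 μM, changes of 1.33 and 1.46 against a spread of 0.23. DNAJC25 had 3.00, 9.64 and 6.41 FPKM, changes of 1.65 and 1.07 against a spread of 0.39, again larger at the lower dose. Rescaled without mitochondrial and small RNA genes, DNAJC1 had 1.04 and 1.08, and DNAJC25 1.37 and 0.70.
DNAJC10 (ENSG00000077232, chromosome 2, 182716255 to 182794464), an ER reductase that helps degrade misfolded proteins, had instead 15.0 FPKM with DMSO, 5.99 with 2.5 μM and 6.97 with 5 μM, changes of -1.31 and -1.09 against a spread of 0.31. Its annotated canonical transcript is very long, 20144 bp, and with the length trend removed the changes were -0.77 and -0.27. DNAJC14, which takes part in receptor export from the ER, had 8.75, 3.21 and 3.25 FPKM, changes of -1.42 and -1.40 against a spread of 0.47. DNAJC22 had 13.3, 4.42 and 4.78 FPKM, changes of -1.57 and -1.46 against a spread of 0.32. For these 3 genes the DMSO library was the highest and the JG231 libraries lay close to each other. DNAJC16 and DNAJC18 had changes of -0.35 and -0.45 at 2.5 μM while at 5 μM DNAJC16 had -0.26 and DNAJC18 4.47 FPKM beside 4.48 in DMSO, within their spreads of 0.50 and 0.53. Of these 7 genes 2 were higher and 5 lower at 2.5 μM, and 2 were higher and 4 lower at 5 μM, beside 36.4% higher and 43.4% lower, and 36.5% and 45.1%, over all genes.
Mitochondrial class C members also differed among themselves. DNAJC28 (ENSG00000177692, chromosome 21, 33488055 to 33491716) had the lowest change of the measured members, with 3.28 FPKM with DMSO, 0.790 with 2.5 μM and 0.301 with 5 μM. These correspond to about 78, 24 and 11 fragments, and only the DNAJC28 value with DMSO was over 1 FPKM, so it passed the filter through that library and had to be lower. Its log2 changes of -1.92 and -3.07 compare with a spread of 0.92. DNAJC30, which is linked to repair of respiratory complex I, has a single exon and a single annotated transcript and had 4.78, 2.07 and 2.26 FPKM, about 195, 107 and 138 fragments. Its changes of -1.17 and -1.05 exceeded its spread of 0.55. DNAJC4 was higher, at 10.5, 16.2 and 17.2 FPKM and changes of 0.62 and 0.71 against a spread of 0.28, which with the length trend removed were 0.30 and 0.21. DNAJC11, a protein of mitochondrial membrane organisation, had -0.23 and 0.02.
Of the 3 members that act on vesicles and endosomes, 1 was lower at 2.5 μM and 2 at 5 μM as deposited, beside 43.4% and 45.1% of all genes. DNAJC5, the cysteine string protein of synaptic and secretory vesicles, had 27.5 FPKM with DMSO, 22.2 with 2.5 μM and 19.7 with 5 μM, changes of -0.31 and -0.48 against a spread of 0.25. DNAJC13, an endosomal protein, had changes of 0.24 and -0.29, and DNAJC6, the clathrin-uncoating auxilin, of -0.03 and 0.15, each within spreads of 0.44 and 0.45. With the length trend removed DNAJC5 had -0.14 and -0.22, DNAJC13 0.52 at 2.5 μM and DNAJC6 0.48 at 5 μM. With the libraries rescaled to a common sum DNAJC13 had 0.28 at 2.5 μM and -0.42 at 5 μM, so there it too changed by over 0.25 in opposite directions.

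Longer transcripts had lower changes, among the members as among other genes. Across the 33 measured members Spearman's rho of change with canonical transcript length reached -0.46 for the lower and -0.62 for the higher dose, beside -0.26 and -0.37 across 11200 protein-coding genes. Genes are not independent replicates and share the same libraries, so these are descriptions. The class C members higher at both doses had a median length of 2280 bp (9 genes) and those lower at both doses 4447 bp (7 genes). DNAJC28, with 1485 bp, and DNAJC30, with 2536 bp, were short and lower. With the length trend removed 20 members were higher and 6 lower at 5 μM, and 6 members changed sign there, DNAJC13 and DNAJC16, which had been called, and DNAJB14, DNAJC11, DNAJC18 and DNAJC21, which had not.

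**Figure D4:**
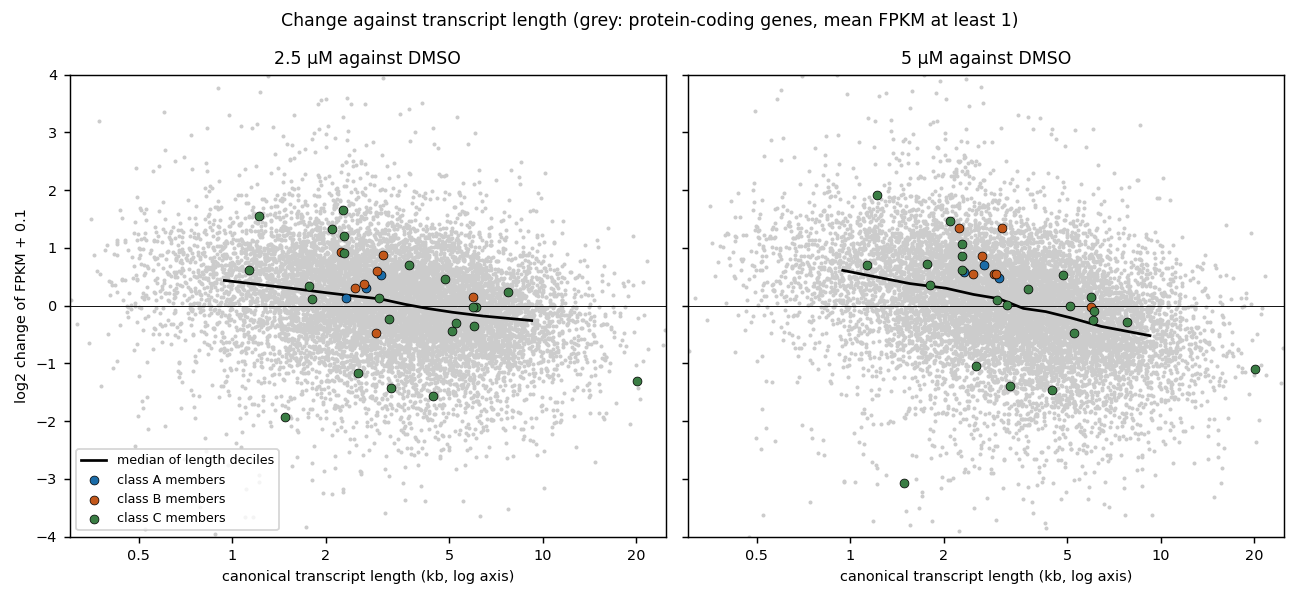
log2 change of FPKM + 0.1 against canonical transcript length (kb, log axis) at 2.5 μM and 5 μM, with protein-coding genes in grey, the median of each length decile as a line and the 33 measured members coloured by class. Points outside the axis limits are not drawn, short members such as DNAJC12 lie high, and DNAJC28 is the short member at -3.07 in the 5 μM panel.

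Between the JG231 libraries, 9 of 32 members with an FPKM over 1 in either were higher at 5 μM than at 2.5 μM by over 0.25, 4 were lower and 19 lay within it, beside 26.8% higher and 30.1% lower over 14197 genes. The 9 were DNAJA1, DNAJA3, DNAJB1, DNAJB2, DNAJB4, DNAJB5, DNAJC8, DNAJC12 and DNAJC18. The 4 lower were DNAJC2, DNAJC13, DNAJC17 and DNAJC25. As deposited, 6 of 10 in classes A and B were higher and none lower, and in class C 3 of 22 were higher and 4 lower. With the libraries rescaled to a common sum 5 members were higher and 6 lower, the calls of DNAJA3, DNAJB1, DNAJC8 and DNAJC12 being lost and DNAJB14 and DNAJC5 added to the lower ones. DNAJB4 alone passed a difference of 1 as deposited, with 1.01 against a spread of 0.50, beside 7.47% of genes higher and 8.09% lower by over 1. It was 0.84 rescaled to a common sum, 0.92 rescaled without mitochondrial and small RNA genes and 0.98 with the length trend removed, so that the call ended in each.

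Other parts of the HSP70 cycle are given for context. Of 12 rows of cytosolic and mitochondrial HSP70s and related genes, 10 passed the expression filter, with 6 higher and 3 lower at each dose, beside 36.4% higher and 43.4% lower at 2.5 μM and 36.5% and 45.1% at 5 μM over all genes. HSPA12B and HSPA1L, which account for 2 of the lower calls, passed the filter through the DMSO library alone and so had to be lower, and HSPA6 passed through the JG231 libraries alone and so had to be higher. HSPA6, a strictly inducible HSP70, went from 0.603 FPKM in DMSO to 5.63 and 5.73, and HSPA8, the constitutive HSP70, had 189, 136 and 180 FPKM. In the same order the stress-inducible HSPA1A had 7.21, 8.72 and 14.2 FPKM, HSPA1B 25.2, 36.4 and 52.5, and HSPA9 56.9, 109 and 108. The members' summed FPKM over that of HSPA8, HSPA1A and HSPA1B, a ratio free of library scaling, was 1.96 in DMSO, 3.37 at 2.5 μM and 2.96 at 5 μM, and DNAJB1 over HSPA8 was 0.20, 0.52 and 0.52. Of 11 nucleotide exchange factors, which release clients from HSP70, 5 were higher at each dose, and 2 were lower at 2.5 μM and 1 at 5 μM, to be read beside the same shares over all genes. BAG1 led at 5 μM with 4.81, 12.4 and 11.6 FPKM, and HSPH1 was the lowest with 17.1, 11.3 and 13.2 FPKM. Among J-domain proteins outside the DNAJ number series, HSCB, which serves iron-sulfur cluster assembly, was higher, with changes of 0.89 and 0.66, while GAK and SEC63 stayed within 0.25. STUB1, the ubiquitin ligase that binds HSP70, had 12.7, 12.8 and 16.5 FPKM, changes of 0.01 and 0.37 against a spread of 0.29. Changes and calls in this paragraph are as deposited and were not rescaled. Rescaling without mitochondrial and small RNA genes lowered the 5 μM change of DNAJA1 from 0.58 to 0.20.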

How the data were processed

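RNA-seq of H660 cells was analysed in 1 library each for DMSO, 2.5 μM JG231 and 5 μM JG231, at 24 h. The authors deposited gene-level FPKM values, made by HISAT alignment and StringTie quantification according to their methods. The sample records name HISAT2, featureCounts and GRCh38 (hg38) and strand-specific libraries. Versions and annotation release are not given in the sources used here. The dose unit and the time come from the study's methods.

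Members and gene lists were chosen with earlier results of these data known. Of 58735 rows, 58207 matched GENCODE release 44 by identifier, for gene type, coordinates and canonical transcript length. Changes were log2 ratios with a pseudocount of 0.1, and calls required FPKM over 1 in either library and an absolute log2 change over 0.25. These thresholds follow the study's filter, but its further rule of keeping genes that go to or from 0 was not applied, so DNAJA4 and DNAJB7 have no call. Medians used a minimum mean FPKM of 1 over the libraries. Elsewhere counts are over members that passed the call filter. Fragments were estimated from FPKM, canonical length and the value of 1 fragment, which was read from genes with a single transcript. Among those under 50 fragments, 84.5% to 88.6% were whole within 0.05. For genes with more than 1 transcript such numbers are rough. A count model was not applied, since FPKM are not counts. Named members were all of class A, the 3 highest in DMSO of classes B and C, those with a mean of at least 1 and a log2 change over 1 at either dose with the same sign at both, those with opposite changes over 0.25, those with a mean under 1 and the most changed of each role group. Members outside this rule are given with values so that every member is accounted for, and were added after their values were seen.

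Alternatives were pseudocounts of 1 and 0.01, no filter or a mean FPKM of at least 5, 2 rescalings, centring, removal of the length trend by lowess (fraction 0.3), a threshold of 1 and leaving out the highest member of a class. Of 200 genes changed by known folds among 11200 simulated, 200 were recovered. No noise was simulated and all values lay above the filter, so this checks the calculation only. It says nothing about the accuracy of calls from single libraries. Protein sequences were not analysed here. Calculations ran in Python 3.11.15 (statsmodels 0.14.6, scipy 1.17.1, pandas 2.3.3, numpy 2.4.6), and plots in matplotlib 3.10.9.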

Additional observations from a re-analysis of the deposited data

Results flagged for a closer look

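DNAJB4 had changes in opposite directions at the 2 doses, -0.47 at 2.5 μM and 0.54 at 5 μM on the log2 scale, from 1 library each, and the difference was not tested. The 5 μM change is close to the spread of 0.50 and was 0.17 after the rescaling without mitochondrial and small RNA genes. An antisense RNA gene that overlaps DNAJB4 (ENSG00000273338) was listed at 0 in DMSO and at 2.5 μM and had 4.18 FPKM at 5 μM, and its part in the result was not tested.
Among rows that carry the DNAJ prefix without being members, the noncoding RNA DNAJC9-AS1 (ENSG00000227540) had 6.08 FPKM with DMSO, 5.69 with 2.5 μM and 17.3 with 5 μM, a level in the 5 μM library above that of the control. A second row with the same symbol (ENSG00000236756) had 0.553, 0.196 and 0.574 FPKM. Neither row overlaps the annotated DNAJC9 gene in the annotation used. DNAJC9 itself had 17.0, 32.0 and 31.0 FPKM, highest with 2.5 μM.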

How the results depend on the processing

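DNAJB13, DNAJA4 and DNAJC28 depended on the pseudocount. DNAJB13 at 5 μM had -6.69 with 0.01 and -1.01 with 1, and DNAJA4 -5.44 and -0.51. DNAJC28 at 5 μM had -3.40 and -1.72, beside -3.07 in the main setting. Filters on low values cannot move the change of a single gene. After rescaling without mitochondrial and small RNA genes, the class A median was 0.017 for the lower and 0.20 for the higher dose, and the class B median was 0.11 and 0.18, and the class C median turned to -0.17 and -0.27. The members higher numbered 10 at each dose, and those lower at 5 μM numbered 14. With a mean FPKM of at least 5, the class B median was 0.88 at 2.5 μM and 1.33 at 5 μM, and the members lower numbered 4 and 5. There only DNAJB1, DNAJB2 and DNAJB12 of class B were left. With a threshold of 1, 4 members were higher and 6 lower at 2.5 μM, and 5 higher and 6 lower at 5 μM. After rescaling without mitochondrial and small RNA genes, 2 were higher by over 1 at 5 μM. Between doses, 0 members were higher by over 1 after either rescaling or without the length trend, and 5 were higher by over 0.25 at a common sum. These counts over 1 under alternatives, and those between doses, were chosen after seeing the data. Among members that were called but not named by the rule, DNAJC7 and DNAJC17 turned sign at 5 μM in the rescaling without mitochondrial and small RNA genes, and DNAJC13 and DNAJC16 with the length trend removed. No paired analysis was possible because each condition has 1 library, and for the same reason no replicate could be left out. With JG231 the values of DNAJA4, DNAJB7, DNAJB13 and DNAJC28 rest on few fragments or none, although the JG231 libraries were the deeper ones.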

Other observations

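Rows with the DNAJ prefix that were outside the 39 members and the 4 left out by name numbered 27, of which 4 exceeded 1 FPKM in any library. DNAJC8P1, a processed pseudogene of DNAJC8, had 3.01 FPKM with DMSO, 0.660 with 2.5 μM and 1.90 with 5 μM, while DNAJC8 itself was highest at 5 μM. DNAJB1P1, DNAJB5P1 and DNAJC25-GNG10, the readthrough of DNAJC25, were listed at 0 in all libraries.
Overlapping genes on the opposite strand had levels of their own. PSMC2, which overlaps the annotated DNAJC2 gene, had 34.8, 33.3 and 42.9 FPKM in DMSO, 2.5 μM and 5 μM, while DNAJC2 was highest at 2.5 μM. ORMDL2, which overlaps DNAJC14, had 13.2, 15.8 and 15.0 FPKM, and TMEM198B, a pseudogene there, had 6.58, 1.20 and 0.902 FPKM, lower with JG231 like DNAJC14. The sample records name strand-specific libraries. No source used here states if reads were assigned by strand, and the values of these pairs are uncertain for that reason. NUDT22 overlaps the annotated DNAJC4 gene on the same strand, with 5.78, 6.67 and 9.21 FPKM in DMSO, 2.5 μM and 5 μM. Assignment by strand would not separate that pair.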
